A study of Mus musculus with 11 samples.

Results

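The 39 Hox genes of clusters A, B, C and D were followed in the RNA-seq libraries of 3 mouse embryonic stem cell genotypes. They were chosen by name alone, as every gene of the deposited count table called Hoxa, Hoxb, Hoxc or Hoxd with a number, and make up 39 of its 25239 genes. The study sequenced RNA and immunoprecipitated DNA from J1 cells, a mouse embryonic stem cell line, with mutant DNA methyltransferases, the enzymes that methylate cytosine in CG dinucleotides. All 3 genotypes share the TKO background, and they are labelled TKO, TKO_FL and TKO_602, with 1 RNA library each. The sources used here do not say what the suffixes of TKO_FL and TKO_602 stand for, nor how many clones or cultures a library comes from. TKO and TKO_FL are labelled day 0 in every field, and TKO_602 in its title only. The cells were grown with serum and LIF on a layer of growth-arrested mouse embryonic fibroblasts, so feeder RNA could be present. The other 8 of the 11 samples hold DNA pulled down for its methylated or hydroxymethylated cytosine and were not analysed here.

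Hox genes encode homeodomain transcription factors that give cells their position along the head-to-tail axis of the embryo. The mouse genome keeps them in 4 clusters, in which the members at one end (low paralog numbers, called anterior) act in the hindbrain and neck and those at the other end (high numbers, called posterior) act in the lumbar, tail, limb and genital regions. In embryonic stem cells the clusters are known to be covered by Polycomb proteins and to be nearly silent until differentiation signals such as retinoic acid, Wnt and Fgf arrive.

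The gene counts summed to between 19573689 reads in TKO_FL and 43158441 reads in TKO_602. Dnmt1, the maintenance methyltransferase, stood at 159 CPM (reads scaled to a common library total) in TKO, 3364 CPM in TKO_FL and 2444 CPM in TKO_602. The 10 pluripotency markers were all detected, with summed levels of 6281, 8027 and 8007 CPM, so the cell type on the labels is present in each library. Per the header of the count table, the reads of TKO_602 were aligned in a separate folder, and its genotype and any difference in library handling cannot be told apart. Since each genotype has 1 library, differences are between single libraries, without a replicate check or a p-value. Intervals are exact 95% binomial (Clopper-Pearson) intervals of a ratio, computed from reads divided by 2 because mates were counted singly, and they cover counting error only. A level of 0 allows up to 6 reads (3 read pairs), which is 0.29, 0.312 and 0.134 CPM in the 3 libraries, named here and below in the order TKO, TKO_FL and TKO_602.

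The Hox promoters available here held, at the median, more of the dinucleotide that DNA methyltransferases act on than promoters over all genes. RefSeq promoter windows (GRCm38.p6) with the same gene start as in the count table were found for 22 of the 39 members. Most of these belong to clusters A and D. Cluster B is represented by Hoxb1, Hoxb4 and Hoxb8 and cluster C by Hoxc4 only. The 250 bases upstream of the start held a median of 12 CG dinucleotides in these members (range 2 to 35) and 6 over all 32851 windows of that length. At least 10 CGs were present in 59.1% of the Hox windows and in 37.8% of all windows. The sets are not alike, because the Hox set held 1 window per gene and the 32851 windows belong to 27025 genes. Another start of Hoxa10 and of Hoxd11, not used here, had 20 CGs each, against 7 and 2 in the windows used. Of the windows below, 1 belongs to the member with the most reads in TKO (Hoxd13), 1 to the member with the lowest TKO_FL to TKO fold (Hoxd1), and 2 to members more abundant in TKO_602 than in TKO (Hoxd9 and Hoxc4). All 4 are on the + strand, and capitals mark CG. Hoxd13 covers chr2:74667975-74668224 with 31 CGs, Hoxd9 chr2:74697513-74697762 with 13, Hoxd1 chr2:74762730-74762979 with 24, and Hoxc4 chr15:103034145-103034394 with 8.
Hoxd13: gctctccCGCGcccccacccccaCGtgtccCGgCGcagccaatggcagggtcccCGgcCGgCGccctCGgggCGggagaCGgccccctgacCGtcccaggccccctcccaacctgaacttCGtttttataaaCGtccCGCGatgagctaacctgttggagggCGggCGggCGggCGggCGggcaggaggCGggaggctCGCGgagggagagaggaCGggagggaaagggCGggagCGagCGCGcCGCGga
Hoxd9: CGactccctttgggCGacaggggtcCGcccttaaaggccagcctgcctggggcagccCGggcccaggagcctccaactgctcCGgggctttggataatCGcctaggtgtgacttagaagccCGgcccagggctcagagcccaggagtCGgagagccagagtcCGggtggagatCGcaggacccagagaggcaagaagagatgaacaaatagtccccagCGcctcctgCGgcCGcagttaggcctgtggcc
Hoxd1: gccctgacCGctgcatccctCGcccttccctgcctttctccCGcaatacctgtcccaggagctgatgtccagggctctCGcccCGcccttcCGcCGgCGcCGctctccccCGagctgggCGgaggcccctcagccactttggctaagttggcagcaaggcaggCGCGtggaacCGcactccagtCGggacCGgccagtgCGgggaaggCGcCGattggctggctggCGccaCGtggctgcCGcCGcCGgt
Hoxc4: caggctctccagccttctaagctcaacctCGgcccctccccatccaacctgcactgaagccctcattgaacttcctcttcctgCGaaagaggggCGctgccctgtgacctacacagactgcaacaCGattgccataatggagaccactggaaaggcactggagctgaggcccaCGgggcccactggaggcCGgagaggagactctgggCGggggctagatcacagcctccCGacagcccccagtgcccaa
Hoxd13 and Hoxd1 lie at opposite ends of cluster D and have CG-dense windows, while the Hoxc4 window has far fewer CGs. The TATA motif TATAAA, read on both strands, was in 13.6% of the Hox windows and 12.4% of all windows, and Hoxd13 holds overlapping matches on both strands. The homeodomain motif TAATTA was in 4.55% of the Hox windows against 4.84% of all, and the Hox-Pbx motif TGATTNAT in 4.55% against 2.82%. These are letter matches only, and the motif shares in the 22 windows rest on between 1 and 3 genes each.

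In all 3 libraries the Hox genes together made up a very small share of the RNA. The 39 members summed to 27.6 CPM in TKO, to 15.4 CPM in TKO_FL and to 40.2 CPM in TKO_602, from 572, 296 and 1802 reads. This was 0.00271%, 0.00151% and 0.00418% of the gene reads. A level of at least 1 CPM was reached by 8 members in TKO, 5 in TKO_FL and 11 in TKO_602, against 51.6%, 52.0% and 52.1% of all genes. No reads at all were counted for 6, 11 and 1 members, and TKO_602 was sequenced to about double the depth of the others. The median member stood at 0.386, 0.156 and 0.379 CPM. Over the libraries, 12 members reached 1 CPM somewhere and 5 did so everywhere: Hoxb9, Hoxc13, Hoxd8, Hoxd9 and Hoxd13.

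**Figure D1:**
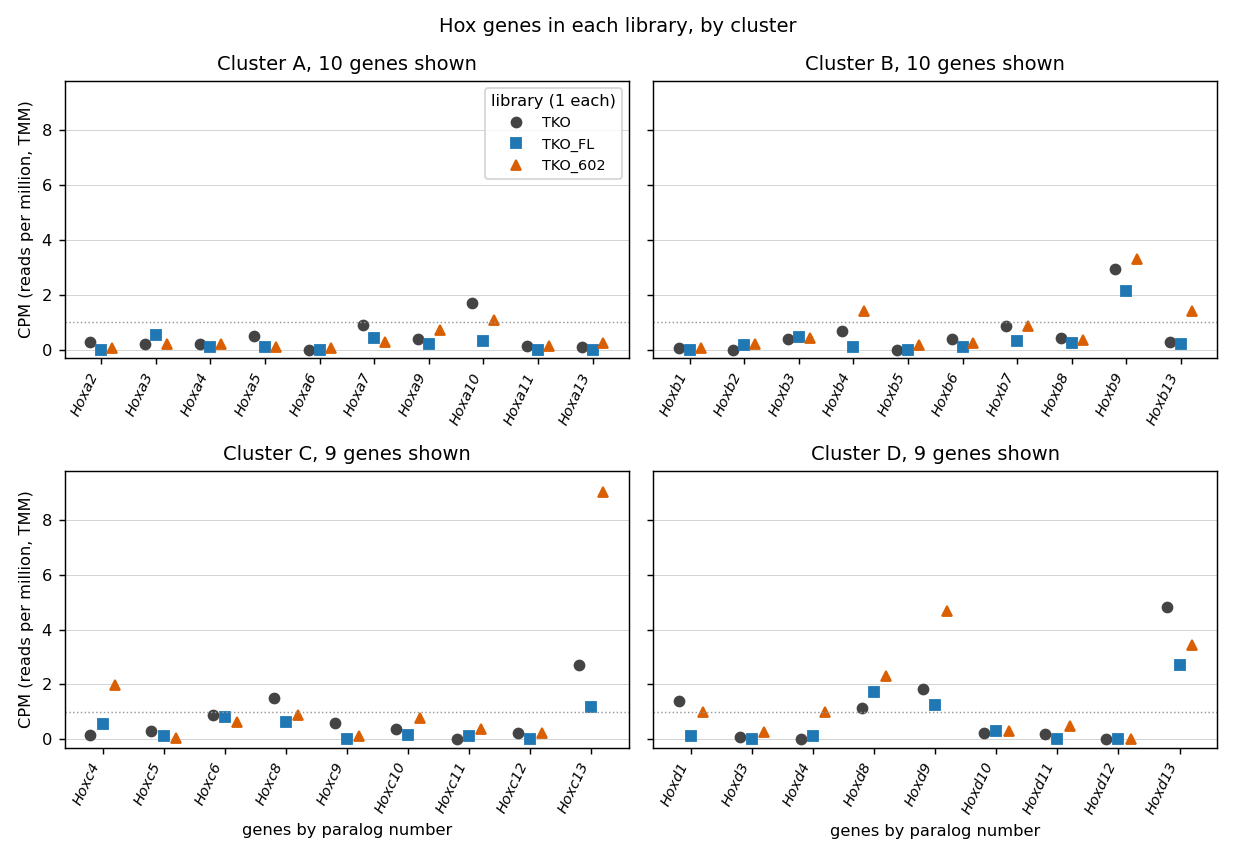
Level of the Hox genes (1 member is not shown; y axis, CPM with TMM factors) in the TKO, TKO_FL and TKO_602 libraries, in 1 panel per cluster with genes ordered by paralog number. Most points lie under the dotted line at 1 CPM, and the highest is Hoxc13 in TKO_602 at 9.01 CPM.

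By position, the posterior members together held most of the Hox level in every library, carried by a few genes. The 16 members of paralog groups 9 to 13 summed to 16.6, 8.58 and 26.4 CPM in the same order, or 60.0%, 55.7% and 65.6% of the Hox total. Counted per kilobase of exon, a scale that allows for gene length, their shares were 55.4%, 52.2% and 63.8%. The 15 central members of groups 4 to 8 summed to 7.92, 5.36 and 10.6 CPM, and the 8 anterior members of groups 1 to 3 to 3.14, 1.46 and 3.28 CPM. The median posterior member stood at 0.338, 0.182 and 0.591 CPM and the median central member at 0.435, 0.104 and 0.357 CPM, so in TKO the central median was the higher of the pair. Levels did not climb steadily along the clusters. Group 13, the last in position, was highest in each library (7.92, 4.11 and 14.1 CPM) and group 9 was second (5.75, 3.59 and 8.86 CPM), but the groups between them were lower, with 0.338, 0.104 and 0.982 CPM for group 11 and 0.241, 0 and 0.223 CPM for group 12.

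**Figure D2:**
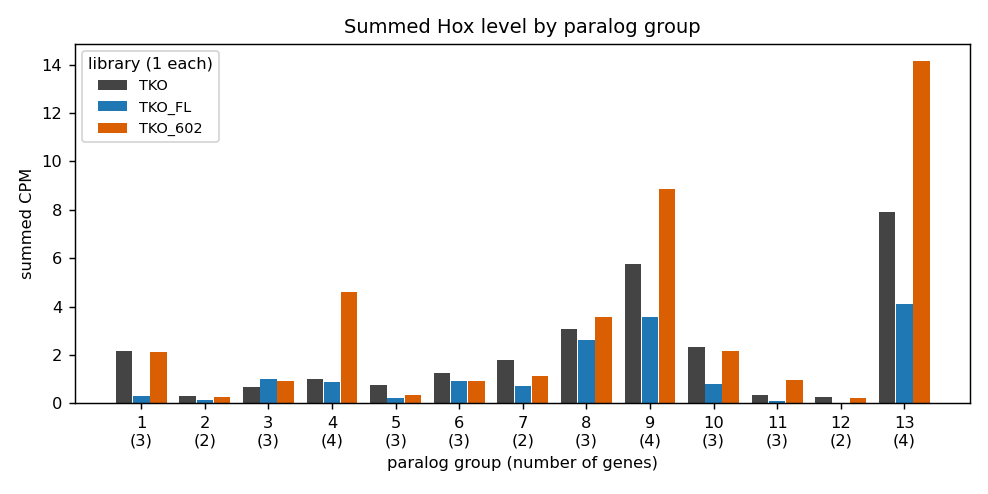
Summed level (y axis, CPM) of each paralog group (x axis, with the number of genes in brackets) in the 3 libraries. Groups 9 and 13 stand highest in each library, groups 11 and 12 are under 1 CPM in each, and group 4 is at 4.62 CPM in TKO_602 against 1.01 CPM in TKO.

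Cluster D (chr2:74668225-74765142 on mm10, 9 genes) was the most abundant in TKO and TKO_FL, with 9.75 and 6.19 CPM. It summed to 13.5 CPM in TKO_602. Hoxd13, a regulator of digit and genital development, had 4.83, 2.70 and 3.46 CPM in TKO, TKO_FL and TKO_602. It was the highest member of any cluster in TKO and TKO_FL, on CPM and per kilobase alike (1.88 and 1.05 CPM per kilobase). Hoxd9, active in the posterior trunk and limbs, had 1.83, 1.25 and 4.69 CPM, with TKO_602 far above the other 2. Hoxd8, a trunk gene, had 1.16, 1.72 and 2.32 CPM, and was the 1 of these 12 members above 1 CPM in TKO that was higher in TKO_FL. Hoxd1, the anterior end of the cluster and a regulator of pain-sensing neurons, had 1.40, 0.104 and 1.00 CPM, from 29, 2 and 45 reads, so TKO_FL stood apart from the other 2. Hoxd4 had 0, 2 and 44 reads and reached 0.982 CPM in TKO_602, the highest level among the members that stayed under 1 CPM. Hoxd12, between Hoxd11 and Hoxd13, had 0 reads in all 3 libraries and was the only member without any.

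Cluster C (chr15:102921131-103036852, 9 genes) summed to 6.71, 3.59 and 14.1 CPM and was the highest cluster in TKO_602, with 35.0% of the Hox total there and 24.3% in TKO. Hoxc13, known for its role in hair and nail formation, had 56, 23 and 404 reads, which is 2.70, 1.2 and 9.01 CPM. It was the top Hox gene of TKO_602, also per kilobase (3.71 against 1.11 in TKO and 0.492 in TKO_FL). Hoxc4, at the other end of the cluster and a gene of the neck and upper trunk, had 3, 11 and 89 reads, or 0.145, 0.572 and 1.99 CPM. Hoxc8, which patterns the thorax and motor neurons, had 1.5, 0.624 and 0.870 CPM, highest in TKO, and Hoxc6 had 0.869, 0.832 and 0.625 CPM.

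Cluster B (chr11:96194316-96368253, 10 genes) summed to 6.04, 3.74 and 8.48 CPM. Hoxb9, a rib and trunk gene, carried the largest part of it, with 2.95, 2.13 and 3.32 CPM. Its level varied the least among the 5 members at 1 CPM or more everywhere. Hoxb13, which lies apart from the rest of the cluster and is known from prostate and tail development, had 6, 4 and 64 reads, or 0.290, 0.208 and 1.43 CPM. Hoxb4, known from blood stem cells, had 14, 2 and 64 reads, or 0.676, 0.104 and 1.43 CPM. Both were thus highest in TKO_602, and Hoxb4 was lowest in TKO_FL. The remaining cluster B members stayed under 1 CPM, among them Hoxb7 at 0.869, 0.312 and 0.848 CPM and Hoxb3 at 0.386, 0.468 and 0.424 CPM.

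Cluster A (chr6:52155367-52260880, 11 genes) had the most members but the lowest sum, with 5.12, 1.87 and 4.17 CPM. Hoxa10, a regulator of the uterus and the lumbar spine, had 35, 6 and 48 reads, or 1.69, 0.312 and 1.07 CPM. Its level was lowest in TKO_FL. In the cluster 9 members stayed under 1 CPM everywhere, and Hoxa7 was the highest of these in TKO at 0.917 CPM, with 0.416 in TKO_FL and 0.268 in TKO_602.

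Reads of some members cannot be assigned to them with certainty, because the counting used no strand and antisense genes cannot be told apart. Exons of another gene cover at least 5% of the exon length of 4 members, and 32 members have no such overlap. The authors' deposited transcripts-per-million (TPM) values, which exist here for TKO and TKO_FL, gave Hox sums of 28.0 and 15.7 TPM with 6 and 11 members at 0.

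TKO_FL was compared with TKO first. The Hox level was lower in TKO_FL in every cluster. The ratio of the summed CPM was 0.557 (interval 0.454 to 0.682), and by cluster it was 0.366 for A (0.202 to 0.635), 0.620 for B (0.400 to 0.95), 0.535 for C (0.345 to 0.815) and 0.634 for D (0.453 to 0.883). It was also below 1 for anterior (0.464, interval 0.229 to 0.893), central (0.676, 0.468 to 0.970) and posterior members (0.518, 0.393 to 0.677). Leaving out Hoxc13, the member with the most reads over the 3 libraries, moved the overall ratio to 0.570. Of the 8 members with at least 1 CPM in either library, 2 were at least 2-fold lower on the log2(CPM + 1) scale and 0 were at least 2-fold higher. Over all 13563 genes tested the shares were 2.5% and 3.24%, and over genes whose highest level was 1 to 10 CPM they were 4.76% and 5.98%. The 2 were Hoxd1, with a log2 fold of -1.12 on that scale, and Hoxa10, with -1.04. Without the pseudocount, which pulls low genes toward no difference, their log2 ratios were -3.75 (interval -9.15 to -1.04) and -2.44 (-4.85 to -0.65). The median log2 fold of the 8 members was -0.64, against 0.00 for all genes tested. Of the 8, 7 were below 0, against 50.0% of all genes tested, Hoxd8 (0.33) being the exception. Hoxa10, Hoxc8 and Hoxd1 reached 1 CPM in TKO but not in TKO_FL, so they could only be below 0. Both members at least 2-fold lower are among them.

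Over all 36 members with reads in either library, the counting interval lay below equal for 5 (Hoxa10, Hoxc9, Hoxc13, Hoxd1 and Hoxd13) and above equal for 0. Over all genes with reads these shares were 19.7% and 19.9%, and over those under 10 CPM 8.13% and 9.3%. Among these, Hoxd13 had a log2 ratio of -0.84 (-1.58 to -0.13) and Hoxc13 -1.18 (-2.31 to -0.14), both smaller than 2-fold on the log2(CPM + 1) scale. Hoxc9 went from 12 reads in TKO to 0 in TKO_FL. Its TKO level was 1.86 times the TKO_FL floor of 6 reads, and its log2 ratio interval ended at -0.13. Members with 0 reads in TKO_FL, such as Hoxc9, could only be below 0, and those with 0 in TKO, such as Hoxd4, only above. Below 0 were 28 of 36 members, against 48.2% of genes under 10 CPM. The fibroblast feeder markers, 24 of 25 of them at 1 CPM or more in some library and none at 0, moved in the same direction. They summed to 1047 CPM in TKO and 641 CPM in TKO_FL, a ratio of 0.612, with 6 of 24 at least 2-fold lower, 0 higher and 21 below 0. The Hox sum amounted to 2.64% of the feeder-marker sum in TKO and 2.40% in TKO_FL, and the part of feeder RNA in the Hox result was not tested. Primitive endoderm markers were lower as well, 386 CPM in TKO and 46.9 CPM in TKO_FL with none at 0, and their part was not tested either. In such bulk RNA, fewer cells of a kind and less RNA per cell cannot be told apart.

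**Figure D3:**
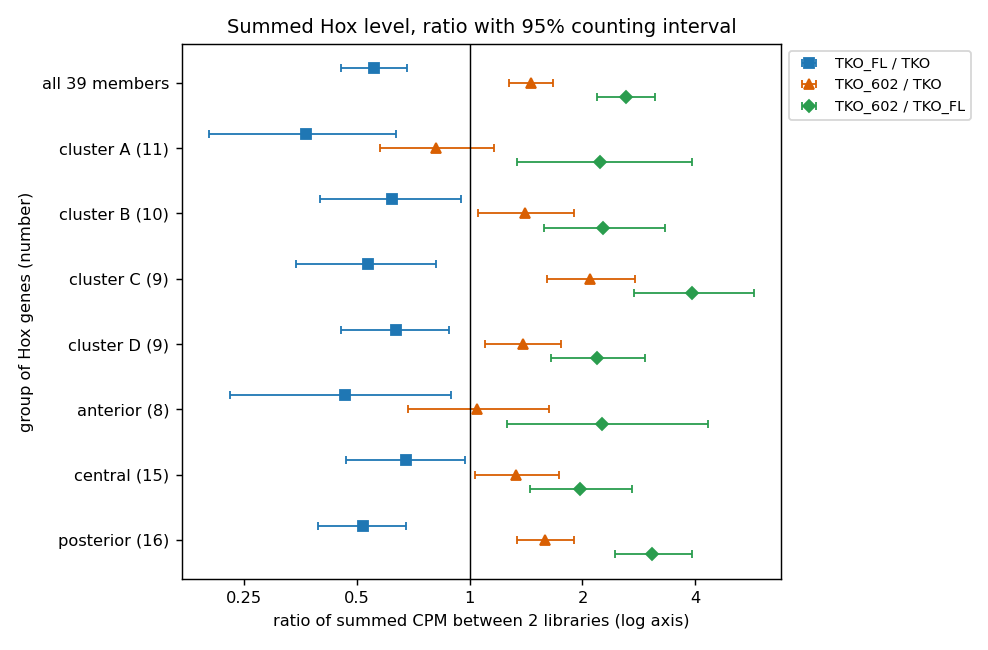
Ratio of the summed CPM between 2 libraries (x axis, log scale) for all Hox members, for each cluster and for each position class (y axis, number of genes in brackets), with bars for the 95% counting interval. All TKO_FL / TKO ratios lie left of 1, all TKO_602 / TKO_FL ratios lie right of it, and TKO_602 / TKO ranges from 0.815 for cluster A to 2.09 for cluster C.

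The ratio of TKO_602 to TKO ranged from 0.815 in cluster A to 2.09 in cluster C. The summed Hox level was higher in TKO_602, with a ratio of 1.46 (interval 1.27 to 1.67), but this rested on few genes. Without Hoxc13 the ratio was 1.25 (1.08 to 1.45), and without Hoxc13 and Hoxd9 it was 1.15 (0.987 to 1.34), an interval that includes equal. Cluster C stood at 2.09 (1.61 to 2.76), B at 1.40 (1.05 to 1.90) and D at 1.38 (1.10 to 1.75), whereas the interval of cluster A, 0.815 (0.576 to 1.16), included equal. In cluster C, Hoxc13 alone held 9.01 of 14.1 CPM in TKO_602 and 2.70 of 6.71 CPM in TKO. In cluster D, Hoxd9 held 4.69 of 13.5 CPM and 1.83 of 9.75 CPM. Posterior members, Hoxc13 and Hoxd9 among them, had a ratio of 1.59 (1.34 to 1.90), central ones 1.33 (1.03 to 1.74) and anterior ones 1.05 (0.683 to 1.63). The cluster and position ratios were not recomputed without these genes, so they do not show a difference shared by a cluster or position. Among paralog groups, group 4 had the highest ratio, 4.56 (2.41 to 9.59), and was singled out after the values were seen. In it Hoxa4, Hoxb4, Hoxc4 and Hoxd4 each had a higher CPM in TKO_602, although Hoxa4 had only 4 and 10 reads. The log2 ratio intervals of Hoxa4 (-2.40 to 3.60) and Hoxb4 (-0.13 to 2.50) included equal. Hoxc4 held 89 of the group's 207 reads in TKO_602.

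Of the 12 members measured, 3 had a level in TKO_602 at least 2-fold above TKO on log2(CPM + 1) and 0 a level at least 2-fold below. The background was 11% and 8.06% of 13748 genes, and 14% and 10.8% of those at 1 to 10 CPM. The 3 were Hoxc13 (log2 fold 1.44), Hoxc4 (1.38) and Hoxd9 (1.00). As log2 ratios without the pseudocount they stood at 1.74 for Hoxc13 (1.16 to 2.36), 3.78 for Hoxc4 (1.60 to 7.61) and 1.35 for Hoxd9 (0.64 to 2.14). Hoxd9 is at the threshold, and Hoxb13, at 0.91 on the log2(CPM + 1) scale, is just below it with a log2 ratio of 2.30 (0.63 to 4.65). The median log2 fold of the 12 was 0.40, against 0.03 for all genes tested, with 8 above 0 and 4 below (Hoxa10, Hoxc8, Hoxd1 and Hoxd13). Over all genes tested, 52.0% were above 0. Members that reached 1 CPM in TKO_602 but not in TKO, Hoxb4, Hoxb13 and Hoxc4 among them, could only be above 0. Hoxc8 reached it in TKO but not in TKO_602 and could only be below. Hoxd13 in particular did not follow Hoxd9 in the same cluster, with -0.39 on the log2(CPM + 1) scale and a log2 ratio interval from -1.01 to 0.06. Over the 38 members with reads, the interval lay above equal for 6 and below for 1, Hoxa7. These shares, 15.8% and 2.63%, compare with 29.9% and 28% of all genes and with 16.6% and 14.9% of genes under 10 CPM, so the count of higher members was near the background. Hoxd4, with 0 reads in TKO and 44 in TKO_602, had a TKO_602 level 3.39 times the TKO floor. Its log2 ratio interval began at 1.34. Feeder markers summed to 962 CPM in TKO_602, 0.919 of TKO, with 1 higher and 6 lower of 23. The Hox sum was 4.18% of the feeder-marker sum in TKO_602. Primitive endoderm markers summed to 79.7 CPM in TKO_602, 0.206 of TKO, with 0 higher and 8 lower of 10. The part of either list in the Hox result was not tested.

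TKO_602 against TKO_FL, the libraries with Dnmt1 reads at the higher levels, showed a higher Hox sum in TKO_602 in every cluster. This comparison shares a library with each of the comparisons above and is not independent of them. The ratio of the sums was 2.61 (2.19 to 3.13), and 2.05 (1.69 to 2.50) without Hoxc13 and Hoxd9. By cluster it was 2.23 for A (1.34 to 3.92), 2.26 for B (1.58 to 3.33), 3.92 for C (2.75 to 5.74) and 2.18 for D (1.65 to 2.93). At least 2-fold higher on log2(CPM + 1) were 4 of 11 members, against 6.75% of all genes tested and 9.12% of those at 1 to 10 CPM. None of the members was 2-fold lower, against 4.87% and 7.14%. The 4 were Hoxc13 (2.19), Hoxd9 (1.34), Hoxb4 (1.14) and Hoxb13 (1.01). All 11 members were above 0, against 52.3% of all genes tested, with a median of 0.86 against 0.03. Members that reached 1 CPM in TKO_602 but not in TKO_FL, Hoxa10, Hoxb4, Hoxb13, Hoxc4 and Hoxd1 among them, could only be above 0. Of the 38 members with reads in either library, 33 were above 0 and 5 below, namely Hoxa3, Hoxa7, Hoxb3, Hoxc5 and Hoxc6. Above 0 were 53.0% of all genes with reads and 55.3% of those under 10 CPM. Members with 0 reads in TKO_FL, the library of lower depth, could only be above 0. Intervals lay above equal for 11 of 38 members and below for 0. Across all genes with reads the shares were 27% and 25.3%, and for those under 10 CPM 13.3% and 11.8%. The feeder-marker sum was also higher in TKO_602, at a ratio of 1.5 to TKO_FL, but the markers were mixed. Of 24 measured, 3 were at least 2-fold higher and 2 lower, and 8 were below 0. Primitive endoderm markers were higher too, at a ratio of 1.70 (79.7 against 46.9 CPM), with 3 of 9 at least 2-fold higher and 0 lower. The part of either in the Hox result was not tested.

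**Figure D4:**
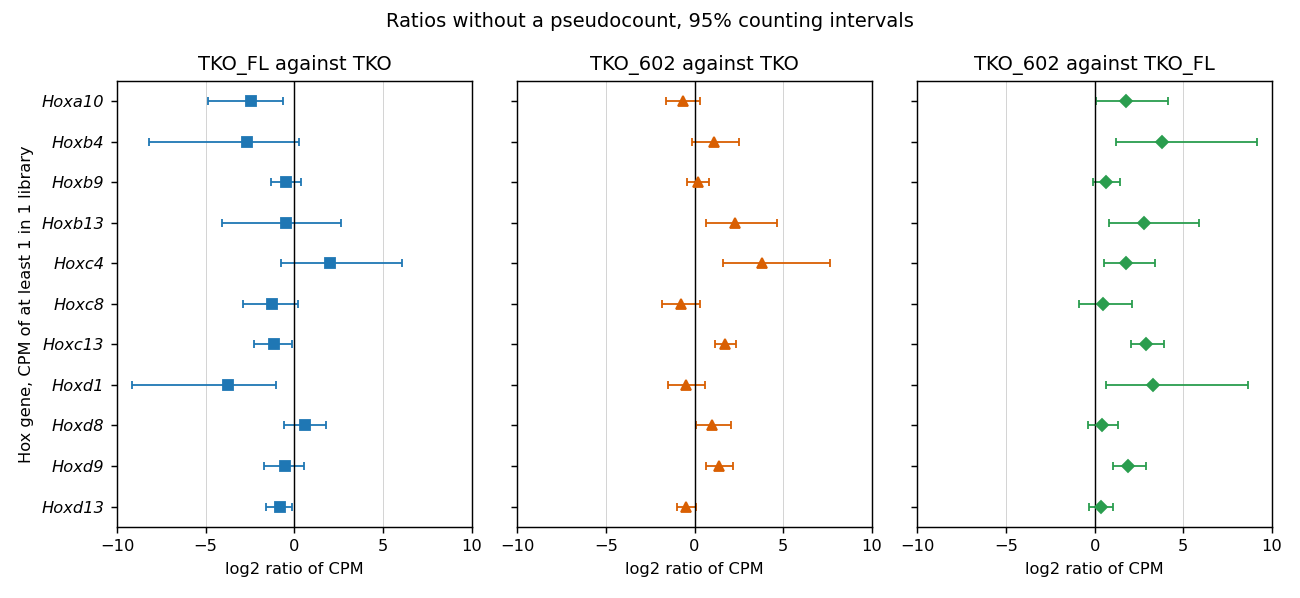
Log2 ratio of CPM without a pseudocount (x axis) for 11 of the 12 Hox genes that reached 1 CPM in some library (y axis), in 1 panel per comparison, with bars for the 95% counting interval. The bars are wide where reads are few, as for Hoxd1 in TKO_FL (2 reads), and narrower for members with more reads, such as Hoxd13 and Hoxb9.

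The clusters also hold 24 genes that are no members, mostly noncoding and microRNA genes, and these were nearly silent too. They summed to 3.09, 2.44 and 6.20 CPM, with 14, 19 and 13 at 0 reads. Only Gm53, between Hoxb13 and Hoxb9, passed 1 CPM, at 1.30, 1.46 and 3.64 CPM. Hotairm1, a noncoding RNA of cluster A, had 6, 7 and 22 reads, Haglr near Hoxd1 had 9, 3 and 21, and Hotair in cluster C had 0, 0 and 4. Of the microRNA genes, Mir196a-1 next to Hoxb9 had 4, 0 and 29 reads, and the other 5 had 0. Poly(A) selection captures precursor transcripts at best, so mature microRNAs were not measured. Mature miR-196a-5p, whose known targets include Hox mRNAs, is shown because its gene was the 1 microRNA locus with reads, with the seed (bases 2 to 8) in capitals.
miR-196a-5p: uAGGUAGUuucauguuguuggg

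Genes next to the clusters were mostly expressed well above the Hox level. The 3 nearest named genes on each side of each cluster made 24 neighbours, of which 19 were measured. None of them was 2-fold higher or lower in TKO_FL than in TKO, with a median log2 fold of -0.01. In TKO_602 against TKO, 2 were higher and 4 lower. Neighbours such as Lnpk beside cluster D (43.2, 45.4 and 49.6 CPM) and Skap2 beside cluster A (54.7, 64.4 and 58.0 CPM) varied little, although they lie 89277 and 142818 bases from the outermost members. Evx1, a homeobox gene 52618 bases beyond cluster A, had 2.51, 1.61 and 0.179 CPM, lowest in TKO_602, and Evx2, 8668 bases beyond Hoxd13, had 0, 0 and 2 reads. Of the 8 ParaHox and Evx genes, homeobox relatives of the clusters, Evx1, Gsx1 (1.30, 0.312 and 0.201 CPM) and Cdx1 (0, 1.04 and 1.87 CPM) reached 1 CPM in some library. Ttll6, a tubulin-modifying enzyme gene 28864 bases beyond Hoxb13, had 1.01, 1.35 and 7.88 CPM, a log2 fold of 2.14 in TKO_602 against TKO.

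Transcripts of the cofactors that Hox proteins bind DNA with had a larger sum than the Hox genes. The 9 TALE-class cofactors (Pbx, Meis and Pknox) summed to 126, 116 and 158 CPM, and all were measured, down to Pknox2 at 0.966, 1.20 and 2.50 CPM. None passed 2-fold in TKO_FL against TKO (median log2 fold -0.17). In TKO_602 against TKO, Pbx4 (2.12, 2.86 and 8.95 CPM, log2 fold 1.67) and Pbx3 (9.17, 15.3 and 25.1 CPM, 1.36) were higher, and Meis1 (5.31, 2.44 and 1.94 CPM, -1.10) was lower.

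Polycomb repressors, which hold Hox clusters silent, were expressed in every library. All 22 were measured, summing to 3077, 3250 and 2816 CPM. Ezh2, the main H3K27 methyltransferase of stem cells, was level at 211, 213 and 187 CPM. In TKO_FL 1 of 22 was at least 2-fold lower than in TKO, Cbx8 (2.99, 0.520 and 3.08 CPM, log2 fold -1.39), and 0 were higher. In TKO_602 against TKO, 2 were higher, Phf19 (10.4, 20.6 and 32.6 CPM, 1.56) and Ezh1 (32.9, 53.9 and 98.5 CPM, 1.55), and 0 were lower. Of the 10 measured Trithorax proteins and H3K27 demethylases, which oppose Polycomb, none passed 2-fold in any comparison.

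Among 14 genes of retinoic acid supply and response, 11 were measured. Cyp26a1, which degrades retinoic acid and is itself induced by it, had 161, 3 and 34 reads, or 7.77, 0.156 and 0.759 CPM, with log2 folds of -2.92 in TKO_FL and -2.32 in TKO_602. It was the only gene of the list past 2-fold in TKO_FL. Rarg, a retinoic acid receptor, had 219, 122 and 80.7 CPM and was lower in TKO_602 (-1.43), and Dhrs3, a retinal reductase, had 0.821, 1.25 and 2.99 CPM and was higher there (1.13). Aldh1a2, which makes retinoic acid, had 3.09, 6.81 and 1.81 CPM, highest in TKO_FL, with a log2 fold of 0.93 there against TKO. Whether any gene of the list bears on the Hox levels was not tested.

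Markers of other cell types that such cultures can hold were also summed. Mesoderm markers stood at 18.3, 12.9 and 10.98 CPM, with Tbx5 and Meox1 at 0 in some library. Neuroectoderm markers stood at 172, 178 and 122 CPM, with Pax3, Neurog2 and Olig2 at 0 in some library. Neither list had its highest sum in TKO_602, where the Hox sum was highest, and their part in the Hox values was not tested.

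**Figure D5:**
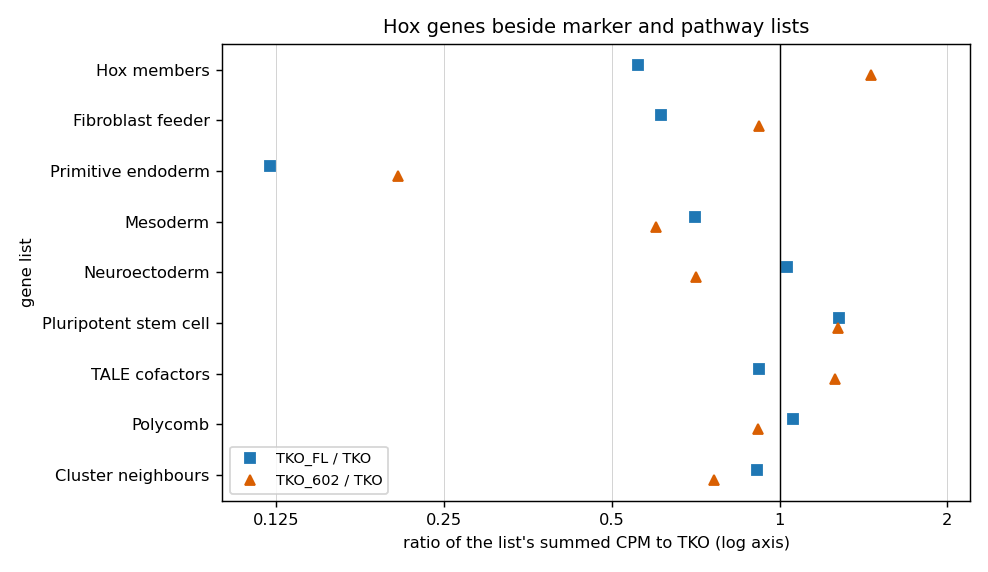
Ratio of each list's summed CPM to TKO (x axis, log scale) in TKO_FL and TKO_602, for the Hox members and for marker and pathway lists (y axis), without intervals. The Hox and feeder-marker points lie close in TKO_FL (0.557 and 0.612) and apart in TKO_602 (1.46 and 0.919), and primitive endoderm markers are the lowest in both.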

How the data were processed

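Counts are the authors' deposited reads per gene, made with featureCounts 2.0.6 in paired mode on the mm10 RefSeq annotation, per the file headers, with no strand option and each mate counted alone. The submitters' processing notes also name Trim Galore, HISAT2 and SAMtools. A deposited signal table covers TKO and TKO_FL; its columns sum to 10000000, so the authors' signal values were divided by 10 and called TPM. Each table has 11 further library columns that match none of these samples and were not used. CPM used TMM factors from edgeR 4.0.16 over the 3 libraries (0.980, 0.983 and 1.04). Folds are of log2(CPM + 1), over genes with at least 1 CPM in either library, with a threshold of 2-fold. Intervals and floors were computed in Python 3.11.15 with scipy 1.17.1 and checked on simulated counts. Depth was 21133660, 19573689 and 43158441 reads. Alternatives changed the pseudocount, the filter, the scaling (none, or DESeq2 1.42.0 size factors) and the unit. Members with at least 1 CPM somewhere are given in full, and up to 4 genes per list with the largest folds, plus genes needed to describe a level. Other genes named were chosen after their values were seen. The members and lists were chosen with earlier results of these data known. Promoter and microRNA sequences come from RefSeq (GRCm38.p6). Some genes are not reported here.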

Additional observations from a re-analysis of the deposited data

How the results depend on the processing

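No paired analysis was possible because each genotype has 1 library, and for the same reason no replicate could be left out. The direction of the Hox sums held under all alternatives run, and the 6 ratios with other scalings stayed within their intervals; only the ratio of TKO_602 to TKO depended on 2 genes. Counts of members depended on the pseudocount and the filter. In TKO_FL against TKO, the 2 lower members became 4 with a pseudocount of 0.1, 0 with 5 and 1 on TPM, and no member was left at a minimum of 5 CPM. With a pseudocount of 0.1 and no filter, an alternative chosen after seeing the data, 14 were lower and 5 higher. In TKO_602 against TKO, the 3 higher members became 0 with a pseudocount of 5, 1 at a minimum of 5 CPM, and 8 higher and 5 lower with 0.1 and no filter. In TKO_602 against TKO_FL, the 4 higher members became 8 with 0.1, 1 with 5, 1 at a minimum of 5 CPM and 20 with 0.1 and no filter, and the median fold of 0.86 became 0.23 with 5 and 0.28 with no filter. Members detected at 0.5 CPM were 14 in TKO, 9 in TKO_FL and 17 in TKO_602, and at 5 CPM 0, 0 and 1. Of 60 counts under alternatives, 41 stayed within 1.5 times the main count. Many of these 41 are counts of 0 that stayed at 0. Scaling moved the median of all genes by at most 0.08. With 27 members under 1 CPM, differences of single members were mostly not detectable at this depth.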

Other observations

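A stretch of chromosome 11 at the posterior end of cluster B was picked out after its values were seen. Ttll6, Hoxb13, Gm53 and Mir196a-1 lie there in this order, and each had its highest CPM in TKO_602. Gm11538, between Hoxb13 and Gm53, did not, with 6, 0 and 6 reads. Ttll6 had 21, 26 and 353 reads in TKO, TKO_FL and TKO_602, Hoxb13 6, 4 and 64, Gm53 27, 28 and 163, and Mir196a-1 4, 0 and 29. Hoxb9, the next member, differed less, with 61, 41 and 149 reads, and so did Calcoco2, 82354 bases beyond Hoxb13, with 855, 751 and 1874 reads. Because TKO_602 is a single library, the genotype and the library cannot be told apart here.

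Genes of posterior and Wnt signals, which are known to act upstream of Hox genes in the embryo, were mixed. The 11 genes summed to 69.6, 48.2 and 19.9 CPM in the same order of libraries. Fgf17, a secreted growth factor, had 44.8, 28.1 and 6.14 CPM, and Wnt5a, a Wnt ligand, had 17.3, 11.8 and 4.66 CPM. Wnt8a had 1.83, 1.72 and 0.179 CPM. These 3 had a TKO_602 level at least 2-fold below TKO. Fgf8 (1.5, 1.09 and 1.85 CPM), Gdf11 (2.99, 3.02 and 4.22 CPM) and Tbx6 (0.0966, 0.312 and 1.07 CPM) were highest in TKO_602, each by less than 2-fold on the log2(CPM + 1) scale. Tbx6 had 2, 6 and 48 reads. Its log2 ratio interval for TKO_602 against TKO, without the pseudocount, was 0.85 to 8.83, while those of Fgf8 and Gdf11 included equal. T, the mesoderm factor Brachyury, stayed under 1 CPM in every library (0.0966, 0.468 and 0.402).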
